A study of Mus musculus and Homo sapiens with 27 samples.

Results

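The genes described here are those whose mouse symbol is TMEM followed by a number and at most 1 letter, the name given to genes whose proteins were predicted to cross a membrane before a function was known. They were taken from the deeper of the count tables of MC38 cells (titled 12G), without Tmem33, where the count summed over its 9 libraries was at least 450. The rule kept 88 genes of the 56691 features in the table, out of 240 genes with such a symbol. The other 152 lay under the minimum, 34 of them at 0 counts in every library. Tmem126b, Tmem39b and Tmem107 stood just inside it with 462, 473 and 486 counts, and Tmem260, Tmem243 and Tmem192 just outside with 444, 442 and 439.

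MC38 is a mouse colon carcinoma line, and all cells of the study stably carried an enzyme named LAP in the labels. Its place, ERM, is taken to mean the endoplasmic reticulum (ER) membrane. For labelling, cells received 10 mM of a compound abbreviated PA with 50 µM furimazine, a luciferase substrate, during 15 to 60 min. RNA was joined to biotin and captured on streptavidin beads, which gives 3 groups of 3 libraries: Label_Enrich, captured from labelled cells, Label_Input, set aside from the same RNA ahead of the beads, and NonLabel_Enrich, captured from cells whose titles say non-labelled and which have no treatment text of their own. The stable line is not said to be 1 clone or a pool, and replicates are not said to be separate cultures, so that p-values measure the spread between these libraries.

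Library totals ran from 13127181 to 18614808 counts. In Label_Input, 1 feature held 80.5% to 80.9% of all counts, against 58.5% to 66.9% in the captured libraries, and the genes of interest had fewer counts there: 18 to 300 per library, against 55 to 1152 in Label_Enrich and 39 to 798 in NonLabel_Enrich. Levels are CPM, counts on a common library size scaled by trimmed mean of M values (TMM), so that higher and lower describe a share of the RNA relative to the bulk of 11676 tested genes. Where NonLabel_Enrich is compared, fewer molecules per cell and fewer molecules captured cannot be told apart. Label_Enrich and Label_Input came from the same RNA, but the main fit did not pair their libraries, so its SE and p-values take them as independent. Of 8 epithelial markers, Epcam and Cdx2 were at 0 counts, Krt8, Krt18, Krt19, Cldn7 and Vil1 summed to 3, 2, 11, 25 and 23 counts, and Cdh1 reached 0.663 to 0.997 CPM. Vim, a mesenchymal intermediate filament gene, stood at 603 to 660 CPM, and group means of the other mesenchymal markers ran from 5.15 CPM for Cdh2 to 316 CPM for Col3a1. Of the blood lineage markers, Adgre1 and Cd3e were at 0 counts, Ptprc summed to 2 counts, and Cd68, a macrophage marker, stood at 1.62 to 2.37 CPM.

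Most proteins of the ER, the Golgi, lysosomes and the cell surface are made by ribosomes bound to the ER membrane. A hydrophobic stretch near the start of the growing chain is recognised by the signal recognition particle and led to the Sec61 channel, through which the chain is threaded or inserted. Proteins of the mitochondrial inner membrane and matrix are instead mostly made on ribosomes outside the ER and imported afterwards. The TMEM name covers both kinds, since it records a predicted membrane segment and not a place or a pathway.

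Of the 88 genes, 56 have a role listed here, in the ER (15), the Golgi, endosomes or lysosomes (14), the cell surface or export (10), the nuclear envelope (4), cilia (3) and mitochondria (10). The other 32 have no listed role. Hydrophobic stretches were scored in the proteins that the GENCODE M21 transcripts encode, as runs of 19 residues with a mean Kyte-Doolittle value above 1.6. The coding bases of the first such stretch are shown for 7 genes whose stretches and levels recur below. They encode 2 ER proteins, a Golgi and a surface protein, a chaperone subunit of lipid flippases and 2 mitochondrial proteins. Capitals mark the 19 codons of the stretch, and lower case marks up to 30 coding bases on each side. Gene positions are given by chromosome only, because the annotation describes the older build GRCm38 and the submitters' processing notes name GRCm39.
Tmem132a: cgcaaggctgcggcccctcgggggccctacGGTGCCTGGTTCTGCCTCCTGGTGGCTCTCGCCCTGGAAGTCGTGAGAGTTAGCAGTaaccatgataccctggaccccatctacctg
Tmem165: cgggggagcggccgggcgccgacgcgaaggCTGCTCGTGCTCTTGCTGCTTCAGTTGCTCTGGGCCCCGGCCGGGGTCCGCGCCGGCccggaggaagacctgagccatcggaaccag
Tmem109: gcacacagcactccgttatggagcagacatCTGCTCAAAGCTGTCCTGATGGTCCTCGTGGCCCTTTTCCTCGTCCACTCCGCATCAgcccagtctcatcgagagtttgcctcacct
Tmem30a: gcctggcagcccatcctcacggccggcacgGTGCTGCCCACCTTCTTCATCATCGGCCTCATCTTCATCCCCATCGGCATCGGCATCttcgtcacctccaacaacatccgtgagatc
Tmem258: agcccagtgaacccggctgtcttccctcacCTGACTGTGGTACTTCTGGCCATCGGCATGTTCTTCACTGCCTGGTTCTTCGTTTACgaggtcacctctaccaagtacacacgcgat
Tmem14c: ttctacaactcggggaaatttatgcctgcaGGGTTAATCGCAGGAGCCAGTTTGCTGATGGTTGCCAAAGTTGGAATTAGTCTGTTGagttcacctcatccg
Tmem126a: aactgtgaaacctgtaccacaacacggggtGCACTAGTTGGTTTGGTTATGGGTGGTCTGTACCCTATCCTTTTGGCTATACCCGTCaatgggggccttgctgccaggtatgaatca
In Tmem132a (ENSMUSG00000024736, chromosome 19) and Tmem109 (ENSMUSG00000034659, chromosome 19) the stretch began at residue 14, and in Tmem165 (ENSMUSG00000029234, chromosome 5) at residue 16. Tmem258 (ENSMUSG00000036372, chromosome 19) encodes only 79 residues, with the stretch at residue 21. It began at residue 50 in Tmem30a (ENSMUSG00000032328, chromosome 9). In the mitochondrial proteins it lay further in, at residue 91 of 114 in Tmem14c (ENSMUSG00000021361, chromosome 13) and at residue 108 of 196 in Tmem126a (ENSMUSG00000030615, chromosome 7).

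Levels of the 88 genes spanned mean values of 2.96 to 36.3 CPM over the 9 libraries, with a median of 7.40. Tmem184b, Tmem43, Tmem183a, Tmem109 and Tmem63a had the highest CPM, at 36.3, 32.1, 29.2, 26.2 and 25.6. Per kilobase of transcript, the order changed to Tmem50a with 13.6, Tmem14c with 13.6, Tmem109 with 11.96, Tmem43 with 11.04 and Tmem259 with 11.01 CPM per kb, where the lowest were Tmem104 with 0.832 and Tmem47 with 0.816. These lengths are those of 1 annotated transcript per gene, and the spread of each level over libraries is larger than the gap between Tmem50a and Tmem14c. The plot of levels by library shows the raw values behind the comparisons that follow.

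**Figure D1:**
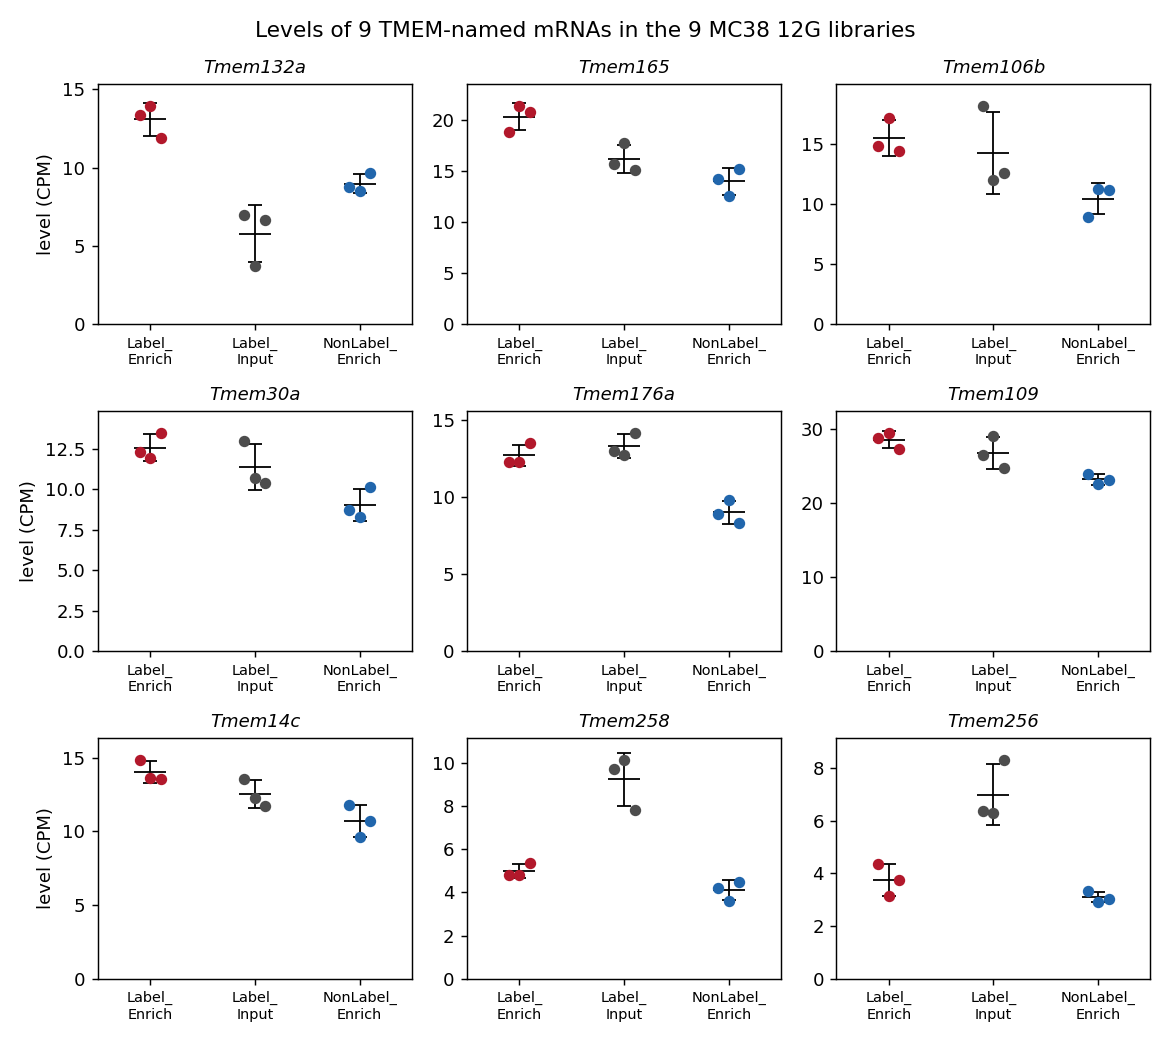
CPM of 9 TMEM-named genes in each of the 9 libraries: points are libraries, horizontal marks are group means and bars are SD (n = 3), on linear axes that start at 0. Tmem132a and Tmem165 were highest in Label_Enrich, Tmem106b, Tmem30a, Tmem176a and Tmem109 were lowest in NonLabel_Enrich, and Tmem258 and Tmem256 were highest in Label_Input.

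The comparison of both captures asks which RNAs held a larger share of the captured RNA when the cells had been labelled. Label_Enrich held higher levels of 23 of the 88 genes than NonLabel_Enrich and lower levels of 3, at an adjusted p under 0.05 in edgeR's quasi-likelihood test. Among all 11676 tested genes, 10.4% were higher and 9.63% lower, and among the 8304 that reach the same minimum of 450 counts, 14.0% and 12.1%. The median log2 fold change of the 88 was 0.14, beside 0.0024 over all tested genes and 0.0063 over those 8304. Genes of the Golgi, endosomes and lysosomes (7 of 14), of the surface or export (5 of 10) and of the nuclear envelope (2 of 4) made up most of the higher calls with a listed role, with 2 of 15 ER genes and 1 of 10 mitochondrial genes.

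Among Golgi and lysosomal genes, Tmem165, which encodes a Golgi cation transporter mutated in a human glycosylation disorder, was measured at 18.8, 21.4 and 20.7 CPM in Label_Enrich, 15.6, 17.7 and 15.1 CPM in Label_Input and 14.2, 12.6 and 15.2 CPM in NonLabel_Enrich. All 3 Label_Enrich libraries lay above all others, and Label_Input and NonLabel_Enrich overlapped. Its log2 fold change was 0.53 ± 0.08 (SE) over NonLabel_Enrich, with an adjusted p of 7.85e-08, and 0.33 ± 0.09 over Label_Input, with an adjusted p of 0.00275. Tmem106b, a lysosomal membrane protein gene linked to frontotemporal dementia, was measured at 14.8, 17.1 and 14.4 CPM in Label_Enrich, 18.2, 12.01 and 12.5 CPM in Label_Input and 8.91, 11.2 and 11.2 CPM in NonLabel_Enrich. NonLabel_Enrich was the low group, while Label_Enrich and Label_Input overlapped. Label_Enrich exceeded NonLabel_Enrich by 0.56 ± 0.09 on the log2 scale (adjusted p = 3.39e-06). Tmem9, a lysosomal and endosomal glycoprotein gene, stood at 11.6, 11.5 and 11.7 CPM in Label_Enrich, 11.7, 8.44 and 8.89 CPM in Label_Input and 8.22, 8.498 and 7.97 CPM in NonLabel_Enrich. Its Label_Enrich libraries were all above NonLabel_Enrich, by 0.49 ± 0.10 (adjusted p = 7.38e-05), and overlapped Label_Input. Tmem59, whose Golgi and endosomal product affects glycosylation of the amyloid precursor protein, rose by 0.38 ± 0.07 (adjusted p = 5.76e-05), and Tmem87a, a Golgi membrane protein gene, by 0.39 ± 0.10 (adjusted p = 0.00404). Tmem87b and Tmem167, a homologue of fly kish, depended on single libraries: their values of 0.46 ± 0.13 and 0.27 ± 0.10 passed with all libraries, but the adjusted p of Tmem87b was 0.0693 without Label_Enrich 1, and that of Tmem167 was 0.0605 without Label_Enrich 1, 0.169 without Label_Enrich 2, 0.0807 without Label_Enrich 3, 0.0866 without NonLabel_Enrich 1 and 0.255 without NonLabel_Enrich 2. The other 7 genes of this compartment did not pass and ranged from -0.19 for Tmem199, a V-ATPase assembly factor, to 0.27 for Tmem106c, a relative of Tmem106b.

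At the surface, the largest change belonged to Tmem206, the proton-activated chloride channel gene, measured at 4.28, 4.07 and 4.696 CPM in Label_Enrich, 3.73, 3.72 and 2.93 CPM in Label_Input and 3.37, 2.31 and 2.11 CPM in NonLabel_Enrich. Label_Enrich lay above both other groups, which overlapped, and exceeded NonLabel_Enrich by 0.74 ± 0.17 (adjusted p = 0.000744). Tmem30a encodes CDC50A, the chaperone subunit that P4-ATPase lipid flippases need to leave the ER. It was measured at 12.3, 11.9 and 13.5 CPM in Label_Enrich, 12.98, 10.7 and 10.4 CPM in Label_Input and 8.74, 8.27 and 10.1 CPM in NonLabel_Enrich. NonLabel_Enrich was lowest, with no overlap with either other group, and Label_Enrich exceeded it by 0.47 ± 0.09 (adjusted p = 9.45e-05). Tmem176a and Tmem176b, a neighbouring pair of four-pass protein genes known from immature dendritic cells, were also lowest in NonLabel_Enrich. Tmem176a stood at 12.3, 12.3 and 13.5 CPM in Label_Enrich, 12.98, 12.7 and 14.2 CPM in Label_Input and 8.91, 9.79 and 8.296 CPM in NonLabel_Enrich. Label_Enrich exceeded NonLabel_Enrich by 0.49 ± 0.09 for Tmem176a (adjusted p = 2.49e-05) and by 0.36 ± 0.07 for Tmem176b (adjusted p = 9.64e-05), without overlap in either gene. The pair overlaps in exon bases on opposite strands, so that its counts cannot be told apart unless the counting used strand. Tmem132a, described with the input comparison, was the fifth surface gene.

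In the ER and the nuclear envelope, Tmem109, which encodes a cation channel of ER and nuclear membranes, was measured at 28.8, 29.5 and 27.3 CPM in Label_Enrich, 26.6, 29.02 and 24.7 CPM in Label_Input and 23.99, 22.6 and 23.2 CPM in NonLabel_Enrich. NonLabel_Enrich was the low group again, by 0.30 ± 0.06 on the log2 scale against Label_Enrich (adjusted p = 0.000226), and Label_Enrich overlapped Label_Input. Tmem209, a nuclear envelope protein gene, rose by 0.41 ± 0.10 (adjusted p = 0.00147). Tmem208, an ER protein gene of the targeting route that bypasses the signal recognition particle, had a value of 0.47 ± 0.16, and Tmem43, the LUMA gene of the inner nuclear membrane, 0.22 ± 0.06. Their calls did not hold without single libraries: the adjusted p of Tmem208 was 0.212 without Label_Enrich 3, 0.0960 without NonLabel_Enrich 1 and 0.121 without NonLabel_Enrich 2, and that of Tmem43 was 0.0894 without Label_Enrich 1 and 0.0644 without NonLabel_Enrich 2. Of the 13 ER genes that did not pass, Tmem173, the gene of the DNA-sensing adaptor STING, had the highest value, 0.34 ± 0.15 (adjusted p = 0.104), and Tmem64, whose product binds the calcium pump SERCA2, the lowest, -0.066 ± 0.12.

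Of the 10 mitochondrial genes, 8 did not pass in this comparison. Tmem14c, an inner membrane protein gene of haem synthesis, was higher, measured at 14.9, 13.6 and 13.6 CPM in Label_Enrich, 13.6, 12.3 and 11.7 CPM in Label_Input and 11.8, 9.62 and 10.7 CPM in NonLabel_Enrich. Label_Enrich lay above NonLabel_Enrich and narrowly above Label_Input, and exceeded NonLabel_Enrich by 0.39 ± 0.09 (adjusted p = 0.000400). Tmem11, which shapes cristae, went the other way, at 8.33, 7.88 and 7.59 CPM in Label_Enrich, 8.66, 7.43 and 10.5 CPM in Label_Input and 10.1, 9.62 and 11.2 CPM in NonLabel_Enrich. NonLabel_Enrich lay above Label_Enrich, Label_Input overlapped both, and the log2 fold change was -0.38 ± 0.10 (adjusted p = 0.00448). That call was lost when 1 library was left out, at an adjusted p of 0.0515 without NonLabel_Enrich 3. The remaining 8 mitochondrial genes ranged from -0.16 for Tmem186, a complex I assembly factor, to 0.14 for Tmem70, an ATP synthase assembly factor. The median over the 10 was -0.05, beside 0.17 over the other 78 genes. This difference was not tested.

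Of the 32 genes with no listed role, 6 were higher and 2 lower. Tmem131l rose by 0.36 ± 0.09 (adjusted p = 0.00275) and kept its call under every alternative. Tmem50a had a value of 0.32 ± 0.08 and an adjusted p of 0.0559 without NonLabel_Enrich 2. For Tmem200b the value was 0.33 ± 0.12, with an adjusted p of 0.0654 without Label_Enrich 1, 0.212 without Label_Enrich 2, 0.136 without NonLabel_Enrich 1 and 0.0839 without NonLabel_Enrich 3. Tmem161a had 0.32 ± 0.11, with an adjusted p of 0.0626 without Label_Enrich 1, 0.0734 without Label_Enrich 2, 0.0983 without NonLabel_Enrich 1 and 0.207 without NonLabel_Enrich 2. Tmem168 had 0.29 ± 0.10, with an adjusted p of 0.132 without Label_Enrich 2, 0.0908 without Label_Enrich 3, 0.144 without NonLabel_Enrich 1, 0.0623 without NonLabel_Enrich 2 and 0.0762 without NonLabel_Enrich 3. Tmem184c had 0.41 ± 0.13, with an adjusted p of 0.0522 without Label_Enrich 2, 0.0754 without Label_Enrich 3, 0.0802 without NonLabel_Enrich 1 and 0.0637 without NonLabel_Enrich 3. The lower calls of Tmem184b (-0.20 ± 0.06) and Tmem234 (-0.22 ± 0.08) also ended: the adjusted p of Tmem184b was 0.147 without Label_Enrich 3 and 0.152 without NonLabel_Enrich 3, and that of Tmem234 was 0.0617 without Label_Enrich 1, 0.161 without Label_Enrich 2, 0.0647 without Label_Enrich 3, 0.209 without NonLabel_Enrich 1 and 0.143 without NonLabel_Enrich 3. Over all 88 genes, 14 of the 23 higher calls and 0 of the 3 lower calls held under every alternative tried. Without NonLabel_Enrich 3 there were 0 lower calls, and there was 1 without Label_Enrich 3 and 1 without a low-count filter.

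**Figure D2:**
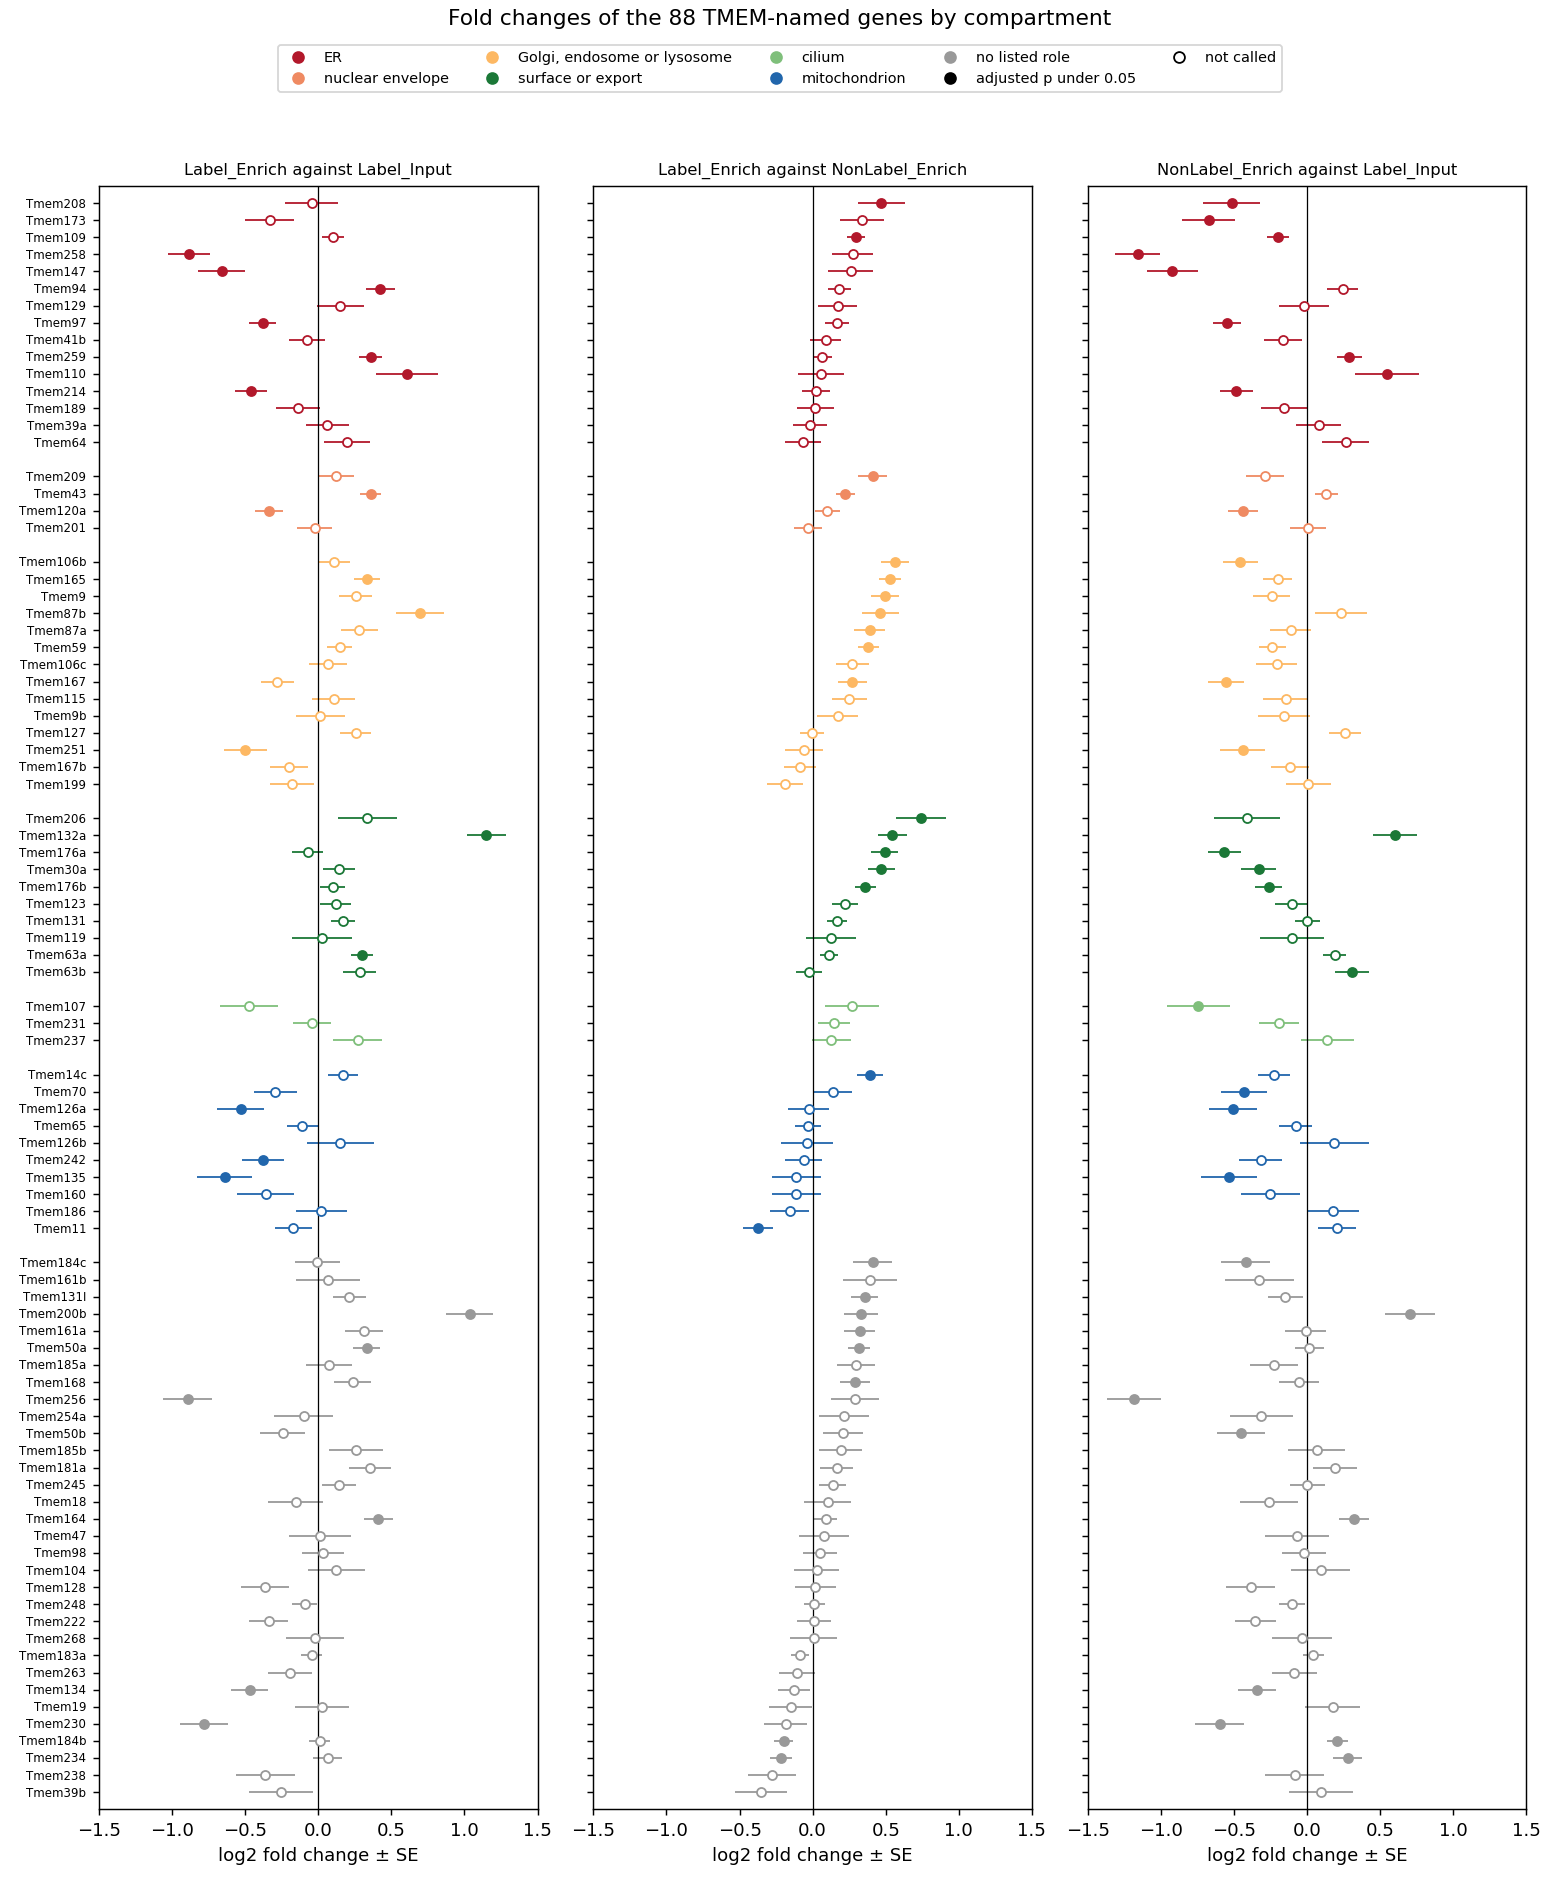
Log2 fold change ± SE (x axes) of the 88 genes (rows) in the 3 comparisons, grouped and coloured by compartment and ordered by the comparison of both captures. Filled points have an adjusted p under 0.05, and the middle panel holds 23 filled points above 0 and 3 below.

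The comparison with uncaptured RNA gave calls in both directions. Against Label_Input, Label_Enrich stood higher for 11 of the 88 genes and lower for 12, where 14.2% of all tested genes were higher and 14.6% were lower. Of the 8304 genes with at least 450 counts, 19.3% were higher and 16.5% lower, against 12.5% and 13.6% of the members. Without a low-count filter, 20 members were higher and 8 lower. The main fit ignores any pairing of these groups, and a fit with a replicate block gave 11 higher and 12 lower. The members' median was 0.025, beside -0.018 over all tested genes and 0.013 over those 8304, and was -0.010 with the shallower counts of the same libraries (titled 3G). The ER genes were split, with 3 of 15 higher and 4 lower. Surface genes had 2 of 10 higher and 0 lower, Golgi, endosome and lysosome genes 2 of 14 higher and 1 lower, and mitochondrial genes 0 of 10 higher and 3 lower.

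The largest rise was that of Tmem132a, a surface protein gene tied to Wnt signalling, measured at 13.4, 13.96 and 11.9 CPM in Label_Enrich, 6.97, 3.72 and 6.67 CPM in Label_Input and 8.74, 8.498 and 9.65 CPM in NonLabel_Enrich. The groups did not overlap, with Label_Enrich highest, NonLabel_Enrich between and Label_Input lowest, where Label_Input 2 was the lowest library. The log2 fold change was 1.15 ± 0.14 over Label_Input (adjusted p = 1.32e-10) and 0.55 ± 0.10 over NonLabel_Enrich (adjusted p = 1.83e-05). Tmem200b, which has no listed role, was measured at 8.29, 9.48 and 7.77 CPM in Label_Enrich, 2.89, 4.58 and 5.03 CPM in Label_Input and 6.34, 7.204 and 6.78 CPM in NonLabel_Enrich. It showed the same order of groups without overlap, and exceeded Label_Input by 1.04 ± 0.16 (adjusted p = 3.15e-07). Tmem63a, a mechanically gated ion channel gene, rose by 0.30 ± 0.08 (adjusted p = 0.00121), and its relative Tmem63b had a value of 0.28 ± 0.11 (adjusted p = 0.0521).

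ER genes on the higher side were Tmem259, Tmem94 and Tmem110. Tmem259 encodes membralin, a protein of ER-associated degradation, and was measured at 27.3, 25.1 and 28.4 CPM in Label_Enrich, 20.9, 18.02 and 23.6 CPM in Label_Input and 25.4, 26.4 and 25.4 CPM in NonLabel_Enrich. Both captured groups lay above Label_Input and overlapped each other, and the log2 fold change over Label_Input was 0.36 ± 0.08 (adjusted p = 0.000257). Tmem94, a gene for an ATPase-like ER membrane protein, rose by 0.43 ± 0.10 (adjusted p = 0.000591); it overlaps Caskin2 in exon bases on the opposite strand. Tmem110 encodes STIMATE, an ER partner of the calcium sensor STIM1, and had a value of 0.61 ± 0.21, with an adjusted p of 0.0660 without Label_Enrich 3, 0.131 without Label_Input 1 and 0.0510 without Label_Input 2. In the nuclear envelope, Tmem43 rose by 0.36 ± 0.07 (adjusted p = 6.39e-05). Tmem87b, in the Golgi, rose by 0.70 ± 0.16 (adjusted p = 0.000463), a call that the 3G counts did not give. Tmem50a and Tmem164, with no listed role, rose by 0.33 ± 0.09 (adjusted p = 0.00376) and 0.41 ± 0.10 (adjusted p = 0.000571).

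On the lower side, Tmem258 encodes a small subunit of the oligosaccharyltransferase, the enzyme that attaches N-glycans to chains entering the ER. It was measured at 4.79, 4.82 and 5.37 CPM in Label_Enrich, 9.74, 10.2 and 7.84 CPM in Label_Input and 4.23, 3.602 and 4.501 CPM in NonLabel_Enrich. Label_Input lay far above both captured groups, and Label_Enrich lay above NonLabel_Enrich without overlap. The log2 fold change over Label_Input was -0.88 ± 0.15 (adjusted p = 1.01e-06), and that over NonLabel_Enrich, 0.27 ± 0.14, did not pass (adjusted p = 0.175). Tmem256, with no listed role, was measured at 4.35, 3.14 and 3.75 CPM in Label_Enrich, 6.37, 6.29 and 8.31 CPM in Label_Input and 3.31, 2.93 and 3.04 CPM in NonLabel_Enrich. Label_Input was again above both captured groups, which overlapped, and the value was -0.89 ± 0.17 (adjusted p = 1.9e-05). Tmem147, a subunit of a complex with nicalin and NOMO that binds behind the Sec61 channel, was measured at 4.25, 5.28 and 4.65 CPM in Label_Enrich, 9.02, 5.86 and 7.25 CPM in Label_Input and 3.598, 3.43 and 4.72 CPM in NonLabel_Enrich. Label_Input was highest and its libraries were the most spread, and the value of -0.66 ± 0.16 (adjusted p = 0.000914) had an adjusted p of 0.0544 without Label_Input 1.

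Also lower were Tmem97, the sigma-2 receptor gene tied to cholesterol handling, by -0.38 ± 0.09 (adjusted p = 0.000807), and Tmem214, an ER gene linked to stress-induced apoptosis, by -0.46 ± 0.11 (adjusted p = 0.000476). Tmem230, with no listed role, had -0.78 ± 0.16 (adjusted p = 9.94e-05). Of the mitochondrial genes, Tmem126a, a complex I assembly factor, was measured at 4.45, 4.402 and 4.47 CPM in Label_Enrich, 6.01, 7.15 and 6.201 CPM in Label_Input and 4.63, 4.73 and 4.23 CPM in NonLabel_Enrich. Label_Input lay above both captured groups, which overlapped, and the value of -0.53 ± 0.16 had an adjusted p of 0.0572 without Label_Input 2. Tmem135, of peroxisomes and mitochondria, had a value of -0.64 ± 0.19 and an adjusted p of 0.129 without Label_Input 1. Tmem242, an ATP synthase assembly factor, had -0.38 ± 0.14, with an adjusted p of 0.153 without Label_Enrich 1, 0.0640 without Label_Enrich 3, 0.0857 without Label_Input 2 and 0.437 without Label_Input 3. A further 3 calls ended with 1 library left out. These were Tmem120a, a nuclear envelope gene of adipocyte differentiation (-0.34 ± 0.10; adjusted p 0.228 without Label_Input 1), Tmem134 (-0.47 ± 0.13; adjusted p 0.0602 without Label_Input 2) and Tmem251, a Golgi gene of the mannose-6-phosphate pathway (-0.50 ± 0.15; adjusted p 0.105 without Label_Input 3). In all, 9 of the 11 higher calls and 5 of the 12 lower calls held under every alternative tried.

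NonLabel_Enrich was lower than Label_Input for 23 of the 88 genes and higher for 8. Among all tested genes, 14.7% were lower and 14.8% higher, and among those with at least 450 counts, 17.2% and 20.04%. Label_Input came from labelled cells, so that capture and labelling both differ here and cannot be told apart. The 23 lower calls became 13 with DESeq2, 12 with the 3G counts and 12 without a low-count filter, and the 8 higher calls became 3 with the 3G counts. The median was -0.13, beside -0.015 over all tested genes and 0.013 over those with at least 450 counts. ER genes had 7 of 15 lower and 2 higher, mitochondrial genes 3 of 10 lower, and Golgi, endosome and lysosome genes 3 of 14 lower. This comparison shares its libraries with both others, so its values are given beside theirs and not as further evidence. The calls that held under every alternative were 7 on the lower side, of Tmem256 (-1.18 ± 0.18, adjusted p = 3.42e-07), Tmem258 (-1.16 ± 0.16, adjusted p = 9.52e-09), Tmem147 (-0.92 ± 0.17, adjusted p = 1.98e-05), Tmem176a (-0.57 ± 0.11), Tmem167 (-0.55 ± 0.12), Tmem97 (-0.55 ± 0.10) and Tmem214 (-0.48 ± 0.11), and 1 on the higher side, of Tmem132a (0.60 ± 0.15, adjusted p = 0.00103).

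Leaving out 1 library ended 16 of the 23 lower and 6 of the 8 higher calls. Without NonLabel_Enrich 2 there were 14 lower and 5 higher calls, without Label_Input 1 there were 15 lower calls, and without Label_Input 2 there were 5 higher calls. Tmem173 had the value -0.67 ± 0.18, with an adjusted p of 0.111 without Label_Input 1. Tmem107, a gene of the ciliary transition zone, had -0.74 ± 0.21, with an adjusted p of 0.0901 without Label_Input 3. For Tmem106b the value was -0.46 ± 0.12 and the adjusted p 0.217 without Label_Input 1, the library in which it was highest. Tmem30a had -0.33 ± 0.12, with an adjusted p of 0.278 without Label_Input 1, 0.0824 without NonLabel_Enrich 1 and 0.135 without NonLabel_Enrich 2. Tmem259 had 0.29 ± 0.08 on the higher side and an adjusted p of 0.0839 without Label_Input 2.

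With all libraries in the fit, Tmem132a and Tmem200b were higher in Label_Enrich than in Label_Input and in NonLabel_Enrich, and higher in NonLabel_Enrich than in Label_Input. Tmem165, Tmem43, Tmem50a and Tmem87b stood higher in Label_Enrich than in Label_Input and NonLabel_Enrich, which did not pass against each other. A set of 11 genes, with Tmem258, Tmem256, Tmem147, Tmem97 and Tmem214 among them, was lower in both captured groups than in Label_Input and did not pass between the captured groups. In 8 genes, Tmem106b, Tmem109, Tmem167, Tmem176a, Tmem176b, Tmem184c, Tmem208 and Tmem30a, NonLabel_Enrich was lower than both other groups, which did not pass against each other. Of these 8, Tmem176a kept both calls under every alternative. Besides the losses given above, the call against Label_Input ended for Tmem109 without any library but Label_Input 3 (adjusted p 0.05002 to 0.275) and for Tmem184c without any library but Label_Input 2 and NonLabel_Enrich 2 (0.0557 to 0.315). It ended for Tmem176b without Label_Input 3 (0.171), NonLabel_Enrich 1 (0.0508) and NonLabel_Enrich 2 (0.0942), and for Tmem208 without Label_Input 1 (0.168), Label_Input 3 (0.213), NonLabel_Enrich 1 (0.100) and NonLabel_Enrich 2 (0.122). A further 40 genes passed in none of the comparisons. They include Tmem41b, a lipid scramblase gene of autophagosome formation, Tmem39a, Tmem64, Tmem129 and Tmem189 of the ER, Tmem127, a tumour suppressor gene that restrains mTORC1, Tmem115, Tmem199, Tmem106c, Tmem9b and Tmem167b of the Golgi and endolysosomal group, Tmem119, Tmem123 and Tmem131 of the surface or export group, and the mitochondrial genes Tmem126b, Tmem160, Tmem186 and Tmem65. Tmem201 of the nuclear envelope, the cilium genes Tmem231 and Tmem237, and, with no listed role, Tmem104, Tmem128, Tmem161b, Tmem18, Tmem181a, Tmem183a, Tmem185a, Tmem185b, Tmem19, Tmem222, Tmem238, Tmem245, Tmem248, Tmem254a, Tmem263, Tmem268, Tmem39b, Tmem47 and Tmem98 complete them.

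Relatives within the family, paired after the list of genes was known, did not always have the same calls. Tmem50a and Tmem50b share 71.3% of the residues of the shorter protein, and their values over Label_Input were 0.33 ± 0.09 and -0.24 ± 0.15. Tmem126a and Tmem126b, both complex I assembly factors with 27.6% identity, had -0.53 ± 0.16 and 0.15 ± 0.23. Tmem184b and Tmem184c, with 31.2% identity, had -0.20 ± 0.06 and 0.41 ± 0.13 over NonLabel_Enrich. Tmem87a and Tmem87b, with 48.1% identity, both passed there. Tmem185a and Tmem185b are the closest pair, with 88.3% identity, and did not pass in any comparison. The sources used here do not say how reads matching both were counted. Differences between relatives were not tested.

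Several members work in complexes of which some other subunits were looked up too. The listed proteins that bind with Tmem147 behind the Sec61 channel are nicalin (Ncln), NOMO (Nomo1), Ccdc47 and Asterix (Wdr83os). Ncln, Nomo1 and Ccdc47 rose over Label_Input by 0.75 ± 0.07, 0.99 ± 0.06 and 0.62 ± 0.09 and over NonLabel_Enrich by 0.48 ± 0.06, 0.63 ± 0.05 and 0.45 ± 0.07. Wdr83os, which encodes 106 residues, fell against Label_Input like Tmem147, with -0.51 ± 0.18 (adjusted p = 0.0253), and had -0.081 ± 0.16 over NonLabel_Enrich, which did not pass. Nomo1 stood at 93.7 ± 2.2 CPM in Label_Enrich, 47.1 ± 3.5 CPM in Label_Input and 60.7 ± 2.4 CPM in NonLabel_Enrich (SD, n = 3). Tmem147 itself stood at 4.73 ± 0.52 CPM, 7.38 ± 1.6 CPM and 3.92 ± 0.70 CPM in the same order of groups.

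Of the other subunits of the oligosaccharyltransferase, to which Tmem258 belongs, only 7 were listed and looked up here. Its catalytic subunits Stt3a and Stt3b rose over Label_Input by 0.53 ± 0.06 and 0.49 ± 0.06, and Rpn1, Rpn2 and Ddost by 0.60 ± 0.06, 0.47 ± 0.05 and 0.30 ± 0.05. All 5 also rose over NonLabel_Enrich, by 0.35 to 0.56. Among the listed subunits and Tmem258, those with the smallest proteins were Dad1 (113 residues), Tmem258 (79) and Ost4 (37). They fell against Label_Input, with -0.64 ± 0.12 for Dad1 (adjusted p = 2.34e-05) and -0.72 ± 0.18 for Ost4 (adjusted p = 0.00127). Neither passed over NonLabel_Enrich, with 0.17 ± 0.11 and 0.10 ± 0.17. The transcript annotated for Dad1 is 3491 nt long, against 1144 nt for Ost4 and 606 nt for Tmem258. Differences between subunits were not tested.

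Among the P4-ATPase flippases that Tmem30a serves, Atp8b2, Atp10a, Atp11a and Atp11b rose over Label_Input, by 0.32, 0.55, 0.41 and 0.42, and Atp11b also rose over NonLabel_Enrich, by 0.36 ± 0.07. Vmp1, an ER scramblase gene that acts beside Tmem41b, fell against Label_Input by -0.33 ± 0.08 and rose over NonLabel_Enrich by 0.30 ± 0.07. The complex I assembly factors Acad9, Ecsit, Ndufaf1 and Timmdc1 passed in none of the comparisons, like Tmem126b.

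**Figure D3:**
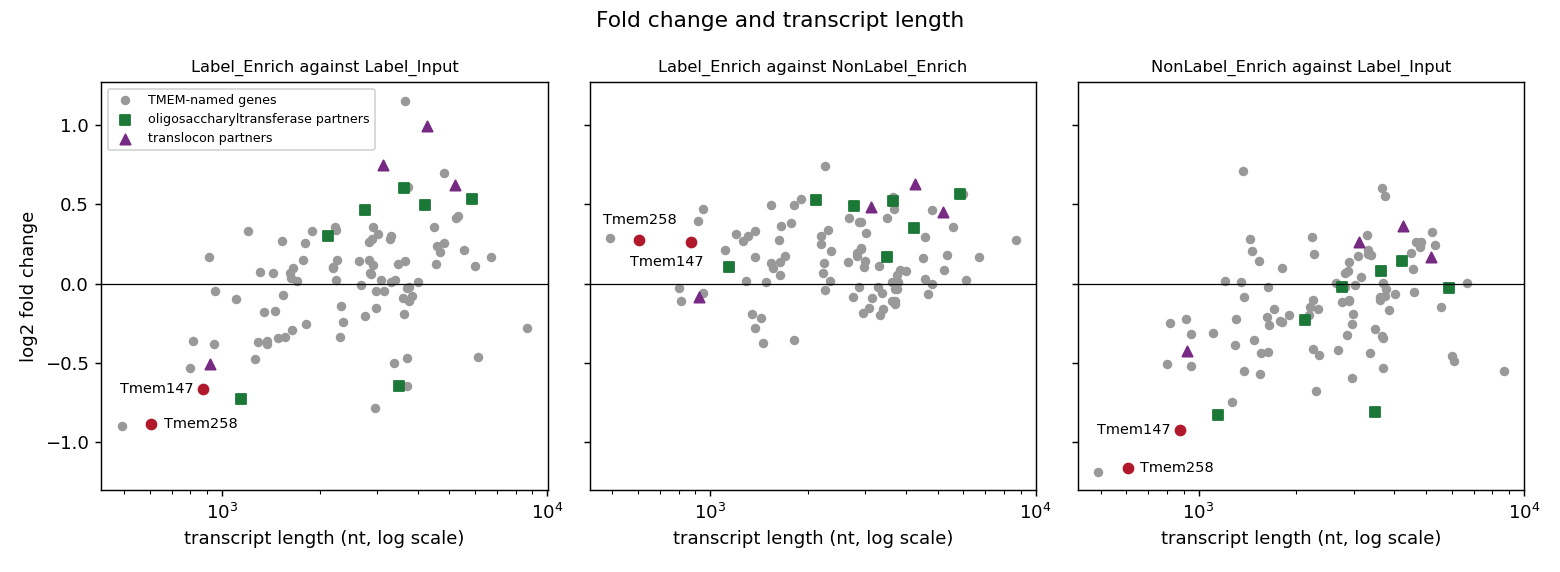
Log2 fold change (y axes) against annotated transcript length in nt (log x axes) in the 3 comparisons: circles are the 88 TMEM-named genes with Tmem258 and Tmem147 in red, squares the oligosaccharyltransferase partners and triangles the translocon partners. Points under 1500 nt lie mostly below 0 in the left and right panels, where Tmem258 stands at -0.88 and -1.16, and mostly above 0 in the middle panel.

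Transcript length moved with the values in both comparisons that involve Label_Input. Across the 88 genes, Spearman's rho between length and log2 fold change was 0.33 for Label_Enrich against Label_Input, -0.08 for Label_Enrich against NonLabel_Enrich and 0.34 for NonLabel_Enrich against Label_Input, as a description across genes that share the same libraries. Over all tested protein-coding genes it was 0.37, -0.11 and 0.42. For protein length, rho was 0.54, 0.16 and 0.42 across members and 0.41, -0.06 and 0.43 over all such genes. For the number of hydrophobic stretches it was 0.42, 0.13 and 0.34 across members and 0.21, 0.21 and 0.07 over all such genes. Which of these features the values follow was not tested. The protein-coding genes set beside the members here were not held to the members' count minimum. The 20 members with transcripts under 1500 nt had a median of -0.35 over Label_Input and 0.19 over NonLabel_Enrich, and 1572 protein-coding genes of that length had -0.29 and 0.07. Their median for NonLabel_Enrich against Label_Input was -0.31, beside -0.36 over all protein-coding genes of that length. Tmem256, Tmem258, Tmem126a and Tmem147, at 492, 606, 799 and 875 nt, are among these short transcripts, and the part of length in their lower levels was not tested. Tmem97 (1375 nt) is short as well, whereas Tmem214 (6110 nt) and Tmem230 (2957 nt) fell with longer transcripts, and Tmem50a (1204 nt) and Tmem200b (1370 nt) rose with short ones.

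The position of the first hydrophobic stretch moved with the comparison of both captures. Of 31 members whose first stretch began within 30 residues of the start, where signal sequences lie, 12 were higher in Label_Enrich than in NonLabel_Enrich and 1 was lower, with a median of 0.27. Of 49 whose first stretch began later, 10 were higher and 1 was lower, with a median of 0.07. The same split over all tested protein-coding genes gave 379 of 1103 higher with a median of 0.19 for an early stretch, and 311 of 2145 with 0.04 for a later one. As shares, 38.7% of members with an early stretch and 34.4% of all such genes were higher. The split was not tested. The protein-coding genes in this paragraph were not held to the count minimum that chose the members. Shares and medians of members and of all such genes are therefore not matched for counts, and their differences cannot be assigned to the members. Against Label_Input, 4 of 31 members with an early stretch were higher, where 368 of 1103 genes were, and the medians were 0.06 and 0.19. Tmem209 and Tmem11 are among 7 members without any such stretch, of which 1 was higher and 1 lower in Label_Enrich than in NonLabel_Enrich. By number of stretches, 7 of 22 members with 5 or more (31.8%) were higher than in NonLabel_Enrich, beside 117 of all 464 genes (25.2%). With 2 to 4 stretches, 11 of 45 members (24.4%) were higher, beside 224 of all 968 genes (23.1%). With 0 or 1, 5 of 20 members (25%) were higher, beside 831 of all 9018 genes (9.21%). These shares were not tested against each other. Against Label_Input, 4 of those 22 members (18.2%) and 140 of the 464 genes (30.2%) were higher.

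**Figure D4:**
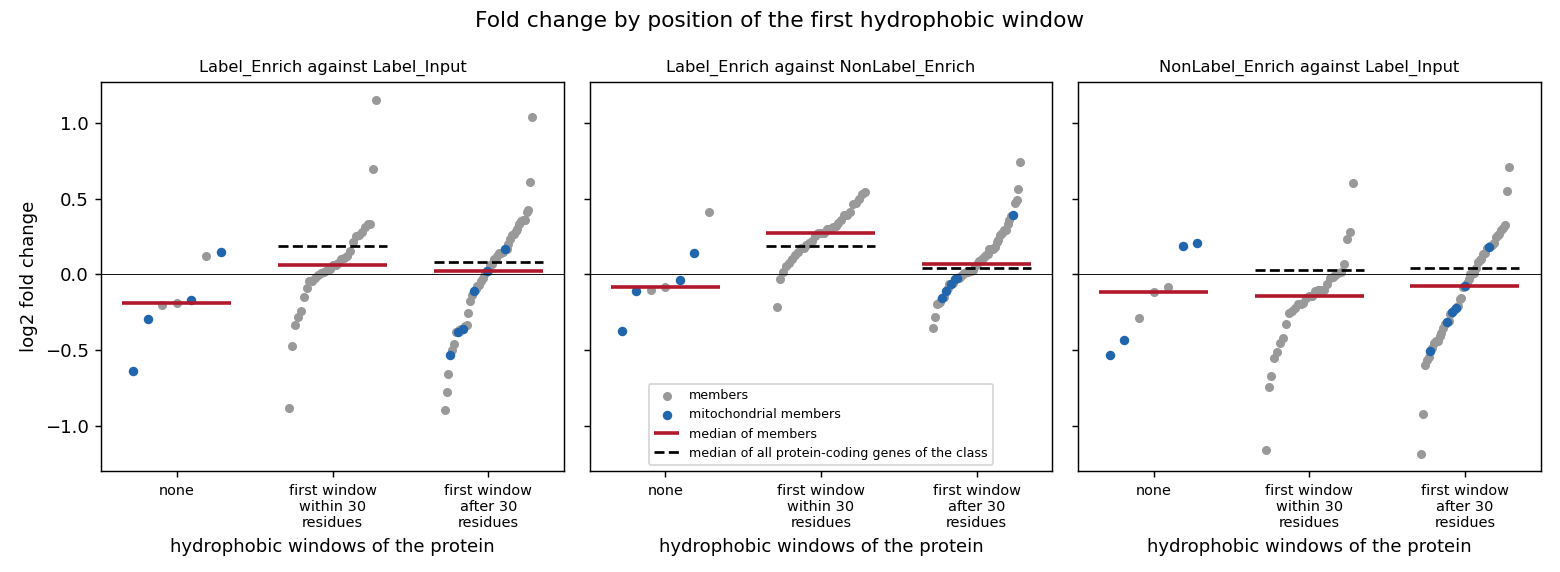
Log2 fold change (y axes) of members without a hydrophobic stretch, with the first within 30 residues and with the first later, in the 3 comparisons: points are genes (mitochondrial ones in blue), red lines the members' medians and dashed lines the medians of all tested protein-coding genes of the class. In the middle panel the red lines stand at 0.27 for early and 0.07 for later stretches.

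Solute carrier (SLC) genes chosen by the same count minimum serve as a family of multipass membrane proteins for scale. Of 81 SLC genes outside the mitochondrial SLC25 carriers, against Label_Input 36 stood higher and 7 lower in Label_Enrich, with a median of 0.25, and 28 were higher and 4 lower than in NonLabel_Enrich, with a median of 0.16. The 24 SLC25 genes had 1 higher and 6 lower calls against Label_Input, and 3 in each direction against NonLabel_Enrich. The TMEM-named genes, with 11 higher and 12 lower and with 23 higher and 3 lower, lay between these families in the share of higher calls in both comparisons. These differences between families were not tested. The families also differ in features that moved with the values above. Median transcript lengths were 2788 nt for the TMEM-named genes, 3926 nt for the 81 SLC genes and 2966 nt for the SLC25 genes. In the same order, median protein lengths were 288, 532 and 320.5 residues, and median numbers of hydrophobic stretches were 2, 8 and 1.

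Counting limits touch some of these genes. Exon bases of 29 members are shared with another annotated gene, and for 9 of them that gene had at least 450 counts: Tmem129, Tmem176a, Tmem176b, Tmem186, Tmem189, Tmem208, Tmem59, Tmem63b and Tmem94. Each of these overlaps is on the opposite strand, and the sources used here do not say whether counting used strand.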

How the data were processed

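RNA of MC38 cells was sequenced in 9 libraries of 3 groups. The deposited values are whole-number counts per Ensembl gene, for which the authors used cutadapt 1.18, HISAT2 2.1.0 and HTSeq 0.7.2 with GRCm39, per the submitters' processing notes. Strand, multiply matching reads and annotation release of the counting: not given in the sources used here. GENCODE M21 (GRCm38) named 52073 of 56691 features and gave transcripts. The 3G counts, at 67.8% to 68.9% of the 12G totals and with 0 features above them, were read as shallower counts of the same libraries. HEK293T libraries were not used here.

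All 9 libraries entered 1 fit in edgeR 4.0.16 (R 4.3.3): TMM factors, the default low-count filter (11676 features, all 88 members), the quasi-likelihood F test and Benjamini-Hochberg adjustment over all features, with a call at an adjusted p under 0.05. SE was taken as the size of the log2 fold change over the root of its F statistic. The script was tested on simulated data. DESeq2 1.42.0 and other settings were alternatives.

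Members, compartments and lists were chosen with earlier results of these data known. The rule named up to 8 called members per direction and comparison, the 5 most abundant, and all with a listed role or a partner. Tmem50a, Tmem50b, Tmem131l, Tmem161a, Tmem168, Tmem184c and Tmem185a with Tmem185b, the genes whose sequence is shown, and the lengths singled out were chosen after their values were seen. Some listed partner and marker genes are not reported here.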

Additional observations from a re-analysis of the deposited data

How the results depend on the processing

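Each count of called members stayed within 1.5 times of the value given with DESeq2's size factors in edgeR, a stricter low-count filter, fits of 2 groups only, a replicate block, and without the most abundant feature and Lars2. Other settings moved some counts further. Without a low-count filter, against Label_Input 20 members were higher and 8 lower in Label_Enrich, 1 was lower than in NonLabel_Enrich, and 12 were lower in NonLabel_Enrich than in Label_Input; that setting raised the log2 fold changes of all genes in the first comparison by a median of 0.10 and the members' median to 0.13. A count minimum of 900 left 6 lower in Label_Enrich than in Label_Input and 12 lower in NonLabel_Enrich than in Label_Input. With the 3G counts, NonLabel_Enrich against Label_Input had 12 lower and 3 higher, and the members' median for Label_Enrich against Label_Input turned from 0.025 to -0.010. DESeq2 gave 13 lower in NonLabel_Enrich than in Label_Input.

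Leaving out 1 library gave 11 to 14 higher and 10 to 13 lower members for Label_Enrich against Label_Input, 18 to 23 higher and 0 to 3 lower against NonLabel_Enrich, and 5 to 7 higher and 14 to 21 lower for NonLabel_Enrich against Label_Input. The members' medians then ranged from 0.020 to 0.042, from 0.13 to 0.15 and from -0.18 to -0.12. Causes were not tested. Deviations from group means correlated at -0.011 to 0.020 for libraries with the same replicate number and -0.023 to 0.015 for others. These values cannot show whether replicate numbers pair the libraries, because counting noise can hide a pairing. A replicate block gave 11 higher and 12 lower, 23 and 3, and 7 and 22 in the 3 comparisons. The alternatives for members outside the naming rule were added after seeing the data. Counts per member were lowest in Label_Input, at 18 to 300 per library.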
